A study of Mus musculus with 12 samples.

Results

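The 10 genes described here bring glucose into cells and set the pace of glycolysis: the glucose transporters Slc2a1, Slc2a2 and Slc2a3, the hexokinases Hk1 and Hk2, the phosphofructokinase subunits Pfkp and Pfkl, the regulatory enzyme gene Pfkfb3, the pyruvate kinase gene Pkm and the lactate dehydrogenase subunit gene Ldha. They were chosen by symbol, with earlier results of these data known, and all 10 were found among the 49585 genes counted. All 10 also had enough counts to be tested, with 14329 genes in all. RNA of whole mouse pancreas was sequenced in 12 libraries of separate animals, aged 2 to 4 months. Wild-type C57Bl6 mice given cerulein form 1 group (libraries O1, O3 and N3), and wild-type mice given saline form its control (W1, K5 and R3). Congenic mice labelled Atf3-/-, lacking by label the stress-induced transcription factor Atf3, were given cerulein (C2, C3 and L4) or saline (S1, K4 and Q1) in the same way. Each animal had 4 injections over 4 h, of saline or of 50 ug/kg cerulein, an analogue of the gut hormone cholecystokinin that drives acinar cells to secrete and, in excess, causes pancreatitis. The tissue was taken 4 h after the injections began, so the data describe an early time only.

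Glucose enters a cell through GLUT transporters and is trapped by hexokinase as a phosphate. Phosphofructokinase then commits it to glycolysis, and its activity is raised by a sugar bisphosphate that PFKFB enzymes make and break down. Pyruvate kinase yields pyruvate, and lactate dehydrogenase turns pyruvate into lactate while renewing the NAD that glycolysis uses up. The exocrine pancreas is mostly acinar tissue, with ducts, islets, vessels and immune cells beside it, and some of these genes are markers of those other cells. In whole tissue, fewer cells of a type and less RNA per cell cannot be told apart.

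Totals ran from 18292997 to 32158629 counts per library. Library C3, labelled Atf3-/- with cerulein, stood apart from its group: on the first principal component, which held 56.3% of the variance, it lay at -55.88, among the saline libraries (-58.8 to -46.42) and away from the other cerulein libraries (61.92 to 86.05). The RNA of Atf3 was not lower in libraries labelled Atf3-/- than in wild type, C3 after cerulein apart. It had 1375, 20.7 and 1636 CPM (counts scaled to a library of 1e6, on TMM-scaled sizes) in C2, C3 and L4, against 775, 599 and 394 CPM in wild-type cerulein libraries. In saline it had 23.1, 7.44 and 13.5 CPM in libraries labelled Atf3-/-, against 3.23, 1.13 and 5.28 CPM in wild type. Counts per gene do not show whether this RNA is intact, so they do not decide the genotype. The group is therefore called labelled knockout, and no direction is drawn from the genotype alone. Most results that include C3 are given with and without it.

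Per kilobase of exon, which allows levels to be set between genes, Ldha was the most abundant of the 10 in every group. In wild-type cerulein libraries Ldha averaged 34.3 ± 3.81 CPM per kb, followed by Pkm at 14.2 ± 3.16, Pfkfb3 at 11.6 ± 2.34 and Slc2a1 at 8.9 ± 2.22 (SD, n = 3 each). The last 3 of these overlapped between neighbours in the order. In wild-type saline libraries the order was Ldha at 16.6 ± 5.78 CPM per kb, Pkm at 10.7 ± 0.912, Hk2 at 2.31 ± 0.395, Pfkfb3 at 2.12 ± 0.35 and Slc2a1 at 1.3 ± 0.264 (SD, n = 3 each), with Ldha overlapping Pkm and Hk2 overlapping Pfkfb3. Pfkfb3 and Slc2a1 thus stood above Hk2 after cerulein, whereas after saline Pfkfb3 overlapped Hk2 and Slc2a1 stood below it. Slc2a3 was the lowest of the 10 in every group, with 8 to 89 counts per library, and its values are the least precise.

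After cerulein, wild-type pancreas held more RNA of 4 of the 10 genes: the transporter Slc2a1, the phosphofructokinase subunit Pfkp, the enzyme gene Pfkfb3 and Ldha. The group means were 6.83, 2.78, 5.45 and 2.07 times those after saline. None of the 10 passed the test in the downward direction. Over all genes tested 30.7% were called, 17.9% higher and 12.8% lower, in this comparison (edgeR quasi-likelihood F test, Benjamini-Hochberg adjusted p under 0.05), so a rise was common in this tissue. The median log2 fold change was 0.672 over the 10 genes and 0.0496 over all genes tested. Because the 10 were chosen with earlier results of these data known, the 2 medians are a description only.

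**Figure D1:**
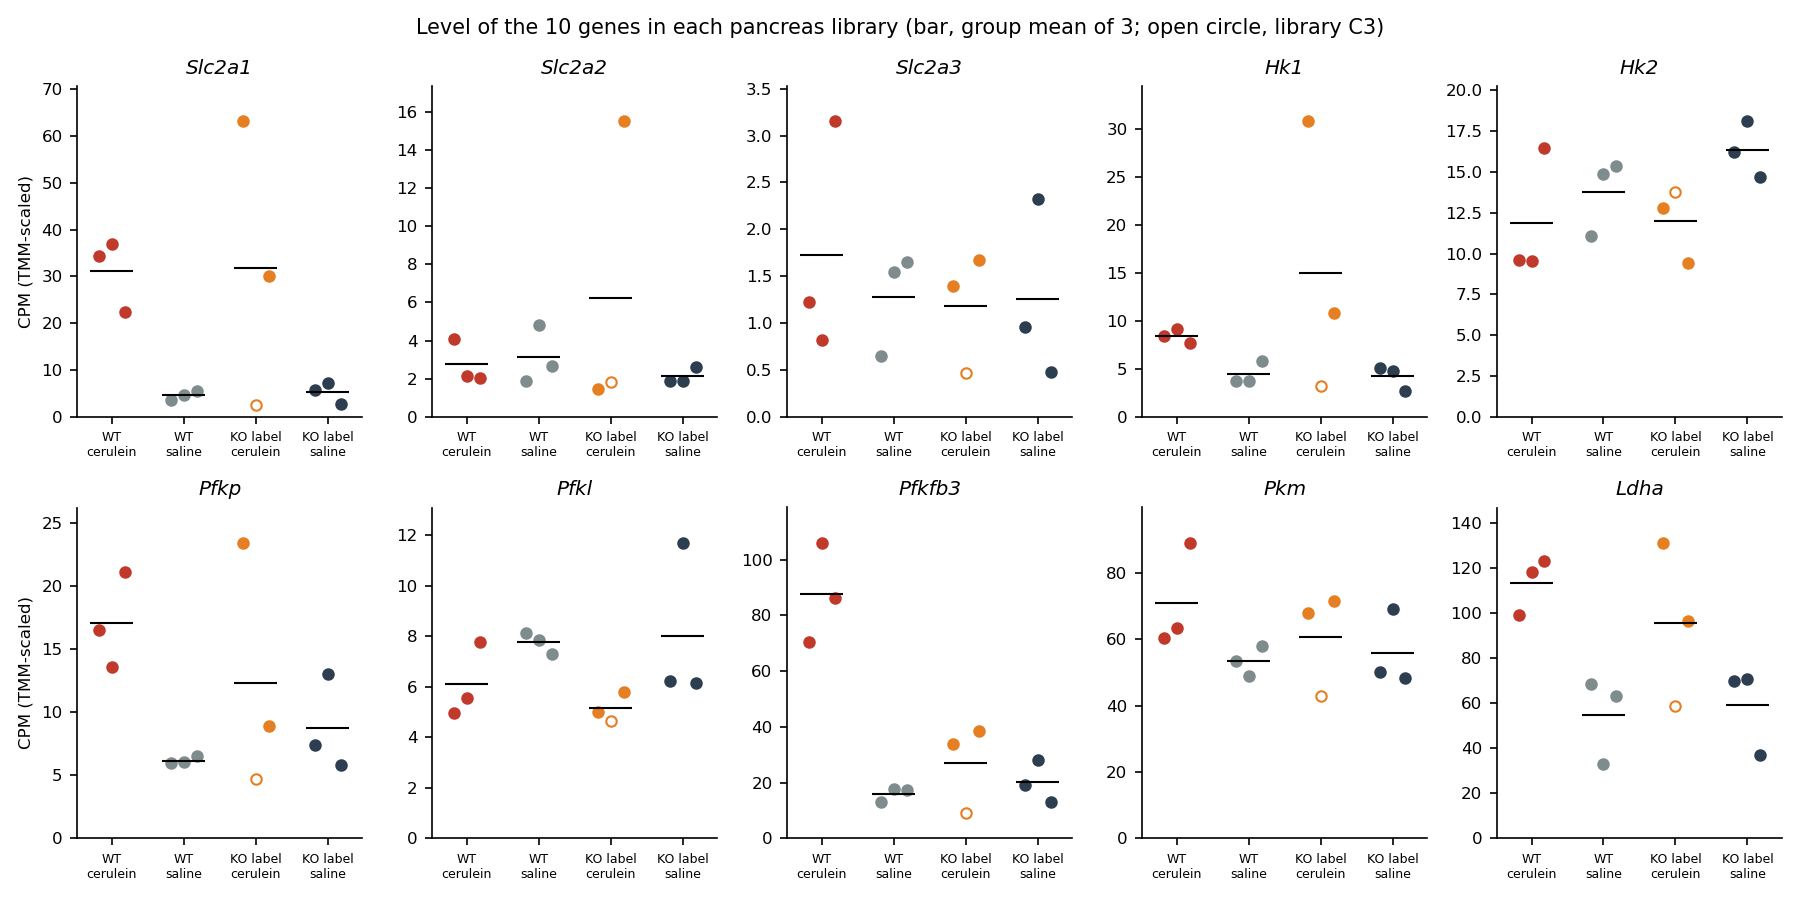
Level of each of the 10 genes in CPM, on a linear axis from 0, in each of the 12 libraries; a point is a library, a bar the mean of 3, and the open circle library C3. Slc2a1, Hk1, Pfkp, Pfkfb3, Pkm and Ldha were higher in every wild-type cerulein library than in any wild-type saline library, and C3 was below every saline library for Slc2a1 (2.58 CPM) and Pfkfb3 (9.19 CPM).

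The promoter stretches of the 4 genes that rose, and of Hk2, which did not pass the test, are shown because genes that move together invite a look at their upstream sequence. The windows are the 250 bases before a RefSeq transcript start on GRCm38.p6, less any bases in an annotated exon, each read 5′ to 3′ on the gene's strand. Capitals mark matches, on either strand, to the hypoxia response core ACGTG, the E-box CACGTG, which holds ACGTG on both strands, the AP-1 site TGACTCA and the cyclic AMP response core TGACG.
Slc2a1, chr4:119108495-119108710, plus strand: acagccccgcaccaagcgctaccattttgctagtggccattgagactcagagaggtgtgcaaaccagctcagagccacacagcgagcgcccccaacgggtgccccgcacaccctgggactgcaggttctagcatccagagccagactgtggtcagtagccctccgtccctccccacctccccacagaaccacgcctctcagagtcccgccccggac
Pfkp, chr13:6648778-6649021, minus strand: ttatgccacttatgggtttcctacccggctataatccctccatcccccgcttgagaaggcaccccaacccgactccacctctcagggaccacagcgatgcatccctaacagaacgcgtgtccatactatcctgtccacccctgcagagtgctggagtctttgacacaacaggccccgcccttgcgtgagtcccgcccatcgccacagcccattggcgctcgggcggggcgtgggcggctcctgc
Pfkfb3, chr2:11502102-11502340, minus strand: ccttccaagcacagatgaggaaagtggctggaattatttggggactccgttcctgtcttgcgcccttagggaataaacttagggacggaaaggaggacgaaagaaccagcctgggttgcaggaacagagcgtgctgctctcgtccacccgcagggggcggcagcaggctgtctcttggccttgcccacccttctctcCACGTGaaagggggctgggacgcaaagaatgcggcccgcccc
Ldha, chr7:46845554-46845803, plus strand: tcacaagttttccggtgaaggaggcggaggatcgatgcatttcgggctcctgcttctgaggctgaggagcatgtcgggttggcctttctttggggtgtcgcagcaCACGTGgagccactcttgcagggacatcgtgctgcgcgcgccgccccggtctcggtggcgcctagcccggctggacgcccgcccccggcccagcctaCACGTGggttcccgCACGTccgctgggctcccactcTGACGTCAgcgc
Hk2, chr6:82774455-82774704, minus strand: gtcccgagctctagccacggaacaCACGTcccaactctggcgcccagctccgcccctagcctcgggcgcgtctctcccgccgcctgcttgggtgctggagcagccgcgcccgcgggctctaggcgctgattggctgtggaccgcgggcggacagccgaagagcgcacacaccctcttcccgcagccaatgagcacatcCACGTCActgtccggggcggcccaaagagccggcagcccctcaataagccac
Among all 32851 windows of this length, ACGTG matched in 16.6%, CACGTG in 6.02%, TGACTCA in 4.46% and TGACG in 17.8%. Pfkfb3 and Ldha had 2 windows each, and only the one with an E-box is shown for each gene. The Ldha window shown held 5 matches to ACGTG, among them 2 E-boxes, and 2 matches to TGACG that share the palindrome near the start. The other Ldha window held no ACGTG and 1 TGACG. The Pfkfb3 window shown held 1 E-box, and 1 TGACG in its exonic bases, which are not printed. The other Pfkfb3 window held 1 ACGTG, no E-box and 2 matches to TGACG. The Pfkfb3 and Ldha windows shown both precede a transcript start inside the annotated gene. The Pfkp window held no match, and the 1 ACGTG of the Slc2a1 window crosses the edge of the exon, so it is printed in part only and not in capitals. Hk2, which was not called, held 2 matches to ACGTG and 1 to TGACG. Among the other uncalled genes with a window, Pkm held 1 ACGTG in 1 of its 2 windows, and Slc2a2, Hk1 and Pfkl held no match. In all, 9 of the 10 genes had a window, and none of their 13 windows held TGACTCA. A match describes letters only and is no evidence of binding.

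Slc2a1 (ENSMUSG00000028645, chr4:119108711-119137983 on the plus strand of GRCm38) encodes GLUT1, the widespread high-affinity glucose transporter. It had 34.3, 37.0 and 22.4 CPM in wild-type cerulein libraries, against 3.62, 4.62 and 5.47 CPM in wild-type saline libraries. Every cerulein library was several times above every saline library, and the log2 fold change was 2.76 ± 0.81 (SE; adjusted p = 0.0267). Slc2a2 encodes GLUT2, the low-affinity transporter of mouse beta cells and hepatocytes, and its groups overlapped, with 4.09, 2.13 and 2.02 CPM after cerulein and 1.88, 4.83 and 2.68 CPM after saline. Its log2 fold change was -0.19 ± 0.78 (SE; adjusted p = 0.877). For Slc2a3, whose product GLUT3 is the transporter of neurons and of several white blood cells, the values were 1.22, 0.823 and 3.15 CPM after cerulein, against 0.647, 1.54 and 1.65 CPM after saline. They overlapped too (log2 fold change 0.43 ± 0.68, SE; adjusted p = 0.672).

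Hk1 (ENSMUSG00000037012, chr10:62268855-62379908 on the minus strand of GRCm38) and Hk2 encode hexokinases bound to mitochondria, Hk1 in most tissues and Hk2 in muscle, fat and proliferating cells. Hk1 had 8.44, 9.15 and 7.71 CPM in wild-type cerulein libraries, against 3.69, 3.75 and 5.87 CPM in wild-type saline libraries. The groups did not overlap, yet the log2 fold change of 0.92 ± 0.60 (SE) did not pass the test (adjusted p = 0.27). Hk1 was called by edgeR fitted on the wild-type libraries alone (adjusted p = 0.0114) and by DESeq2 without C3 (0.0489), but not by edgeR without C3 (0.079). Hk2 had 9.61, 9.54 and 16.5 CPM after cerulein and 11.1, 14.9 and 15.4 CPM after saline. O1 and O3 lay below all saline libraries and N3 above them, and the log2 fold change was -0.21 ± 0.24 (SE; adjusted p = 0.54).

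Pfkp (ENSMUSG00000021196, chr13:6579768-6648777 on the minus strand of GRCm38) and Pfkl encode the platelet-type and liver-type subunits of phosphofructokinase. Pfkp had 16.5, 13.6 and 21.1 CPM in wild-type cerulein libraries, against 5.95, 6.01 and 6.50 CPM in wild-type saline libraries. Every cerulein library exceeded every saline one, and the log2 fold change was 1.47 ± 0.50 (SE; adjusted p = 0.0448). Its exons overlap those of Pitrm1 on the opposite strand, and the strand setting of the counting is not given in the sources used here, so reads in the overlap may belong to either gene. Pitrm1 itself averaged 16.1 ± 1.22 CPM after cerulein and 15.3 ± 1.28 CPM after saline (SD, n = 3 each). Pfkl had 4.97, 5.57 and 7.79 CPM after cerulein, against 8.15, 7.86 and 7.29 CPM after saline. N3 was within the saline range and the other cerulein libraries below it, with a log2 fold change of -0.34 ± 0.27 (SE; adjusted p = 0.35).

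Pfkfb3 (ENSMUSG00000026773, chr2:11471433-11554077 on the minus strand of GRCm38) encodes the PFKFB enzyme with the strongest kinase over phosphatase activity, which drives phosphofructokinase. It had 70.4, 106 and 86.1 CPM in wild-type cerulein libraries, against 13, 17.7 and 17.5 CPM in wild-type saline libraries. The groups were far apart, and the log2 fold change of 2.44 ± 0.47 (SE) had the lowest adjusted p of the 10 genes (0.00918). Pkm, the pyruvate kinase gene of most tissues outside liver and red cells, had 60.3, 63.3 and 89.0 CPM after cerulein, against 53.3, 48.9 and 58.0 CPM after saline. The groups did not overlap, but the log2 fold change of 0.41 ± 0.24 (SE) did not pass the test (adjusted p = 0.214). Counts per gene do not separate its M1 and M2 splice forms. Ldha (ENSMUSG00000063229, chr7:46841475-46855627 on the plus strand of GRCm38) encodes the subunit that favours the making of lactate, and it had 99.2, 118 and 123 CPM after cerulein, against 68.6, 33.0 and 63.1 CPM after saline. K5 was the lowest saline library, the groups did not overlap, and the log2 fold change was 1.05 ± 0.36 (SE; adjusted p = 0.0467).

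In all, 6 of the 10 genes had every wild-type cerulein library above every wild-type saline library, and none had them all below. The same was true of 27.5% (above) and 24.9% (below) of all genes tested. Pfkfb3 passed the test whichever of the 12 libraries was left out (highest adjusted p = 0.0406). Slc2a1 did not when W1, K5, R3, O1 or O3 was left out (highest adjusted p = 0.0861), Pfkp did not without any 1 of the wild-type libraries or S1 (up to 0.116), and Ldha did not without any 1 of the wild-type libraries, S1, K4 or L4 (up to 0.151). With C3 left out, the same 4 genes were called, at adjusted p = 0.000428 for Slc2a1, 6.76e-05 for Pfkfb3, 0.0116 for Pfkp and 0.0204 for Ldha, where 37.9% of genes were called, 21.3% higher and 16.6% lower. In a fit chosen after the data were seen, N3 and K4 were left out instead. N3 was the highest wild-type cerulein library for Hk2, Pfkl, Pfkp and Ldha, so their group means are lower without it. Pfkl was then called lower (log2 fold change -0.60, adjusted p = 0.0433), while Pfkp and Ldha were not called (adjusted p = 0.102 and 0.106). With C3 left out as well, Pfkl (-0.60, adjusted p = 0.017) and Hk2 (-0.57, adjusted p = 0.0413) were called lower, Pfkp was called (0.0197) and Ldha was not (0.0545).

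**Figure D2:**
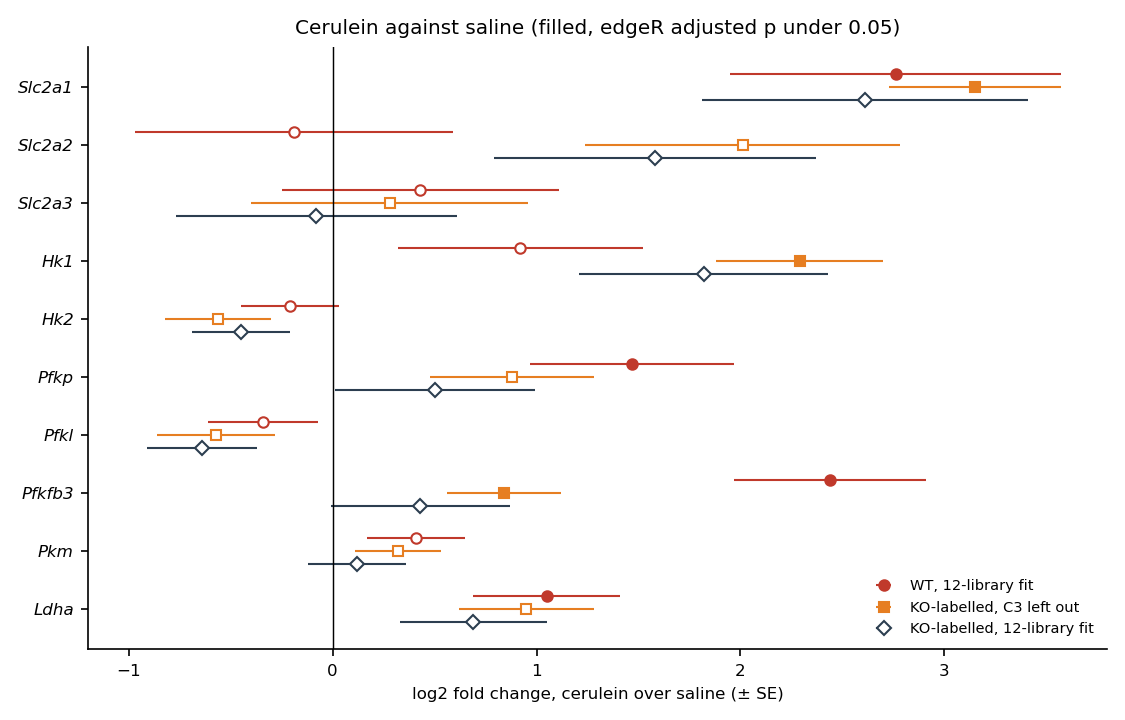
Log2 fold change of cerulein over saline with its SE for the 10 genes, in wild type (circles, 12-library fit) and in the labelled knockout with C3 left out (squares) and with all 12 libraries (diamonds); filled symbols passed the test. In wild type Slc2a1 (2.76) and Pfkfb3 (2.44) lie farthest right, and in the labelled knockout without C3 Pfkfb3 lies at 0.84.

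Markers of other cells moved with this comparison. Of 4 duct markers 3 rose, and their summed level was 149 to 226 CPM in wild-type cerulein libraries, against 26.1 to 29.8 CPM in wild-type saline libraries. The summed level of 5 acinar markers was 182698 to 240336 CPM after cerulein and 274617 to 332101 CPM after saline, and 1 of the 5 fell. None of 4 neutrophil and 4 macrophage markers was called. Acinar markers summed to 182698 CPM or more in every library, as the tissue label would have it. The part of these cells in the rise of Slc2a1, Pfkp, Pfkfb3 and Ldha was not tested.

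In the labelled knockout, none of the 10 genes and none of all genes tested (0%) passed edgeR's test between cerulein and saline when C3 was counted, while 3256 genes and 3 of the 10 had an unadjusted p under 0.05. DESeq2 on the same 12 libraries called 9.48% of genes, among them Slc2a1 (adjusted p = 0.00768) and Hk1 (0.0281). With C3 left out, edgeR called 29.2% of genes, 18.7% higher and 10.5% lower, and 3 of the 10 genes rose: Slc2a1, Hk1 and Pfkfb3. That fit rests on C2 and L4 alone for the cerulein group, and 2 of the 4 duct markers rose in it. The duct markers summed to 80.5, 27.2 and 97.6 CPM in C2, C3 and L4, against 24.2 to 26.7 CPM in labelled-knockout saline libraries, and their part in these changes was not tested. The median log2 fold change without C3 was 0.863 over the 10 genes and 0.00223 over all genes tested, again a description of genes chosen with earlier results known.

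Slc2a1 had 63.1 and 30.0 CPM in C2 and L4 and 2.58 CPM in C3, against 5.69, 7.17 and 2.74 CPM in labelled-knockout saline libraries. C2 and L4 stood above all saline libraries and C3 below them. The log2 fold change was 3.15 ± 0.42 (SE; adjusted p = 0.000435) without C3 and 2.61 ± 0.80 (SE; adjusted p = 0.104) with it. Hk1 had 30.8 and 10.8 CPM in C2 and L4 and 3.24 CPM in C3, against 5.11, 4.81 and 2.74 CPM after saline. C2 held the highest Hk1 of the 12 libraries, and the log2 fold change was 2.29 ± 0.41 (SE; adjusted p = 0.00215) without C3 and 1.82 ± 0.61 (SE; adjusted p = 0.122) with it. With C2 left out in place of C3, the value for Hk1 was 0.74 (adjusted p = 0.499), a fit in which C3 stayed in the group beside L4.

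Pfkfb3 had 34.0 and 38.4 CPM in C2 and L4 and 9.19 CPM in C3, against 19.3, 28.0 and 13.2 CPM in labelled-knockout saline libraries. C2 and L4 were above the saline range by a small margin over K4, and the log2 fold change was 0.84 ± 0.28 (SE; adjusted p = 0.0443) without C3 and 0.43 ± 0.44 (SE; adjusted p = 0.552) with it. Ldha had 131 and 96.6 CPM in C2 and L4 and 58.9 CPM in C3, against 69.7, 70.6 and 36.9 CPM after saline. Its log2 fold change without C3, 0.95 ± 0.33 (SE), missed the threshold (adjusted p = 0.0568), and DESeq2 without C3, which called 31.1% of genes, called it (adjusted p = 0.0261). Pfkp had 23.4 and 8.90 CPM in C2 and L4 and 4.69 CPM in C3, against 7.37, 13 and 5.84 CPM after saline. C2 alone stood above the saline range, and the log2 fold change was 0.88 ± 0.40 (SE; adjusted p = 0.131) without C3.

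Hk2 and Pfkl had every labelled-knockout cerulein library, C3 included, below every saline one. Hk2 had 12.8, 13.8 and 9.43 CPM in C2, C3 and L4, against 16.2, 18.1 and 14.7 CPM after saline, with a log2 fold change of -0.45 ± 0.24 (SE; adjusted p = 0.283). Pfkl had 5.02, 4.64 and 5.78 CPM, against 6.24, 11.7 and 6.14 CPM after saline, with a log2 fold change of -0.64 ± 0.27 (SE; adjusted p = 0.188). Without C3 the log2 fold changes of Hk2 and Pfkl were -0.56 ± 0.26 and -0.57 ± 0.29 (SE; adjusted p = 0.137 and 0.174). Neither gene passed the test, and with C3 counted 6.35% of all genes tested had such non-overlapping lower libraries. Pkm had 67.8 and 71.5 CPM in C2 and L4 and 42.9 CPM in C3, against 50.2, 69.0 and 48.2 CPM after saline (log2 fold change without C3 0.32 ± 0.21, SE; adjusted p = 0.272).

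Slc2a2 was carried by 1 library of the labelled knockout. It had 15.5 CPM in L4, 1.44 CPM in C2 and 1.83 CPM in C3, against 1.88, 1.87 and 2.62 CPM in labelled-knockout saline libraries. The log2 fold change was 1.58 ± 0.79 (SE; adjusted p = 0.253) with C3 and 2.01 ± 0.77 (SE; adjusted p = 0.0776) without it. DESeq2 without C3, which called 31.1% of genes, called Slc2a2 (adjusted p = 0.0289). With L4 left out and C3 kept, the edgeR log2 fold change was -0.38 (adjusted p = 0.691). L4 also held far more islet RNA than any other library: its 11 islet markers, which include Ins1, Ins2 and Gcg, summed to 11224 CPM, against 455 to 3505 CPM in the other libraries. After L4, the 2 libraries with the highest Slc2a2, K5 (4.83 CPM) and O1 (4.09 CPM), were also the next 2 in islet markers, at 2943 and 3505 CPM. With C3 left out, 4 of the 11 islet markers were called higher in the labelled knockout after cerulein, against 18.7% of all genes tested. The cerulein group then held C2 and L4 alone, whose islet markers summed to 1303 and 11224 CPM. The labelled-knockout saline libraries S1, K4 and Q1 had 769, 1151 and 1119 CPM.

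Slc2a3 had 1.40, 0.469 and 1.67 CPM in C2, C3 and L4, against 0.963, 2.32 and 0.477 CPM in labelled-knockout saline libraries. The groups overlapped (log2 fold change -0.08 ± 0.69, SE; adjusted p = 0.948), and without C3 the log2 fold change was 0.28 ± 0.68 (SE; adjusted p = 0.787). Over the 12 libraries the highest levels of Slc2a3 were in N3 (3.15 CPM) and K4 (2.32 CPM). The same 2 libraries had the highest summed levels of 4 neutrophil markers (117 and 89.8 CPM, against 3.4 to 40.8 CPM elsewhere), of 4 macrophage markers (387 and 309 CPM, against 40.6 to 167 CPM) and of 4 adipocyte markers (211 and 224 CPM, against 0.0596 to 64.2 CPM). The summed level of 4 lymphocyte markers was highest in N3 (220 CPM) and K4 (106 CPM) as well, against 1.17 to 103 CPM elsewhere. N3 and K4 were also the highest of their groups for Hk2, Pfkl, Pkm, Pfkp and Ldha. Pfkp and Ldha, called in wild type, lost their call without N3 and K4, but also without W1, K5 or R3 alone. Their log2 fold changes in wild type were 1.25 and 0.95 without N3 and K4, against 1.47 and 1.05 in all 12 libraries. The part of neutrophils, macrophages, lymphocytes and adipocytes in these values was not tested. With N3 and K4 left out, the log2 fold change of Slc2a3 was -0.38 in wild type and 0.67 in the labelled knockout, neither called.

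**Figure D3:**
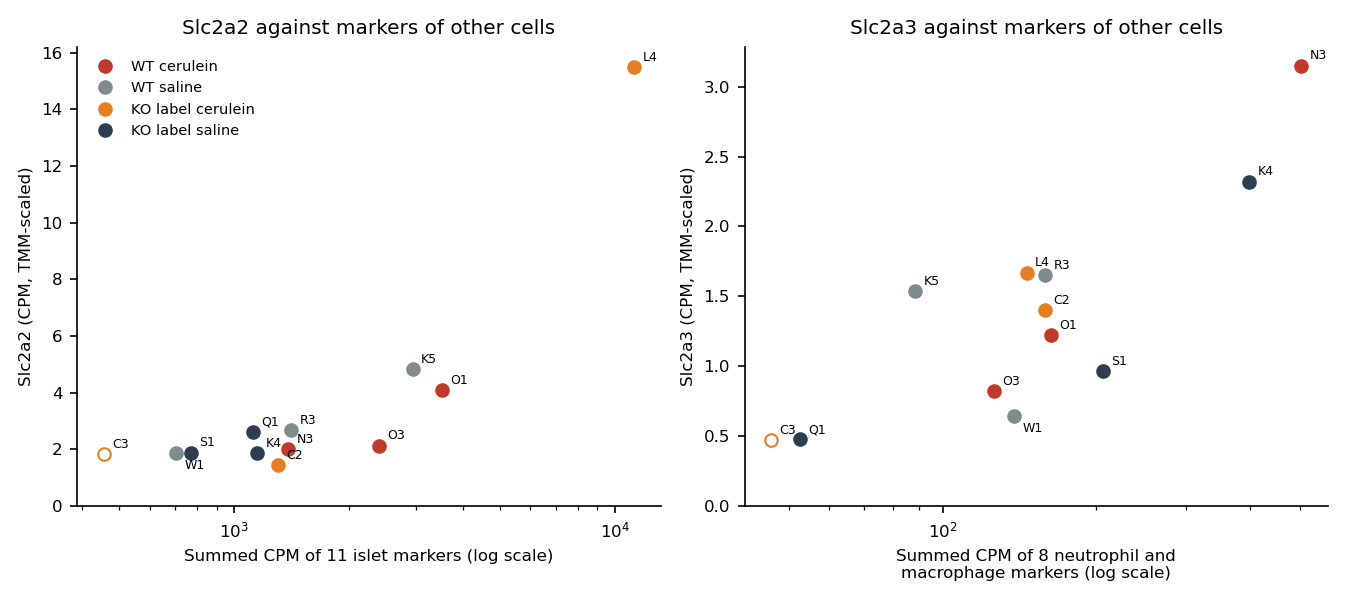
Slc2a2 in CPM against the summed CPM of 11 islet markers (left) and Slc2a3 in CPM against the summed CPM of 8 neutrophil and macrophage markers (right), 1 point per library, with log x axes and C3 as an open circle. L4 stands alone at 15.5 CPM of Slc2a2 and 11224 CPM of islet markers, and N3 and K4 hold the highest Slc2a3.

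Between the genotype labels in saline, none of the 10 genes and none of all genes tested (0%) was called (edgeR; 60 genes and none of the 10 at an unadjusted p under 0.05, and DESeq2 also called none). The libraries overlapped for all 10 genes, and the log2 fold changes ran from -0.56 for Slc2a2 to 0.51 for Pfkp.

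Between the genotype labels after cerulein, edgeR called none of the 10 genes and none of all genes tested (0%), with 1146 genes and 1 of the 10 at an unadjusted p under 0.05, while DESeq2 called 0.0768% of genes and none of the 10. That member was Pfkfb3. It had 34.0, 9.19 and 38.4 CPM in labelled-knockout cerulein libraries, against 70.4, 106 and 86.1 CPM in wild-type cerulein libraries. Even the highest labelled-knockout library, L4, was below the lowest wild-type one, O1, and this held with or without C3. Such non-overlapping lower libraries occurred in 4.29% of genes tested, and in 6.53% without C3. The log2 fold change was -1.68 ± 0.45 (SE; adjusted p = 0.604) with C3 and -1.27 ± 0.29 (SE; adjusted p = 0.818) without it, neither passing edgeR's test. DESeq2 without C3 called Pfkfb3 (adjusted p = 0.0209), where it called 0.095% of genes.

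Hk1 had a positive value that did not reach the threshold and whose sign depended on 1 library. It had 30.8 and 10.8 CPM in C2 and L4 and 3.24 CPM in C3, against 8.44, 9.15 and 7.71 CPM in wild-type cerulein libraries. The log2 fold change was 0.83 ± 0.59 (SE; adjusted p = 0.658) with C3 and 1.30 ± 0.40 (SE; adjusted p = 0.929) without it. With C2 left out and C3 kept it was -0.25 (adjusted p = 0.803). Slc2a1, Pfkp and Ldha overlapped between the labels after cerulein, with or without C3. Their log2 fold changes were 0.03 ± 0.74, -0.47 ± 0.48 and -0.25 ± 0.36 (SE) with C3. Without it they were 0.58 ± 0.40, -0.08 ± 0.41 and 0.00 ± 0.34 (SE), and edgeR called none of these.

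The difference of the cerulein responses, labelled knockout minus wild type, was tested as an interaction. EdgeR called none of all genes tested (0%), with 594 genes and 1 of the 10 at an unadjusted p under 0.05, and DESeq2 called 0.00698% of genes and none of the 10. For Pfkfb3 the difference was -2.01 ± 0.63 on the log2 scale (SE; adjusted p = 0.812), and without C3 it was -1.60 ± 0.39 (SE; adjusted p = 0.999). For Slc2a1 it was -0.15 ± 1.08 with C3 and 0.39 ± 0.56 without it (SE). For Hk1 it was 0.90 ± 0.84 with C3 and 1.37 ± 0.55 without it (SE; adjusted p = 0.832 and 0.999), and with C2 left out and C3 kept it was -0.18. These standard errors are large, and the misses do not show that the responses were alike.

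Isozyme make-up differed between wild-type cerulein and saline libraries in each of the 4 families described here. It is given as shares of the family's summed level per kb of exon, a description without a test. Hexokinase shares are not reported here. Slc2a1 made up 92.1 ± 3.3% of the 3 transporters after cerulein, against 65.4 ± 8.53% after saline (SD, n = 3 each). Pfkp made up 36.9 ± 4.35% of the phosphofructokinase subunits, against 14.9 ± 1.86%. Pfkfb3 made up 92.9 ± 2.79% of the 4 PFKFB genes, against 63.6 ± 2.72%, and Pfkfb2 made up 2.53 ± 0.766%, against 22.3 ± 2.33%. Ldha made up 97.1 ± 1.09% of Ldha and Ldhb, against 88.2 ± 3.98%. None of these 5 shares overlapped between the wild-type groups.

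**Figure D4:**
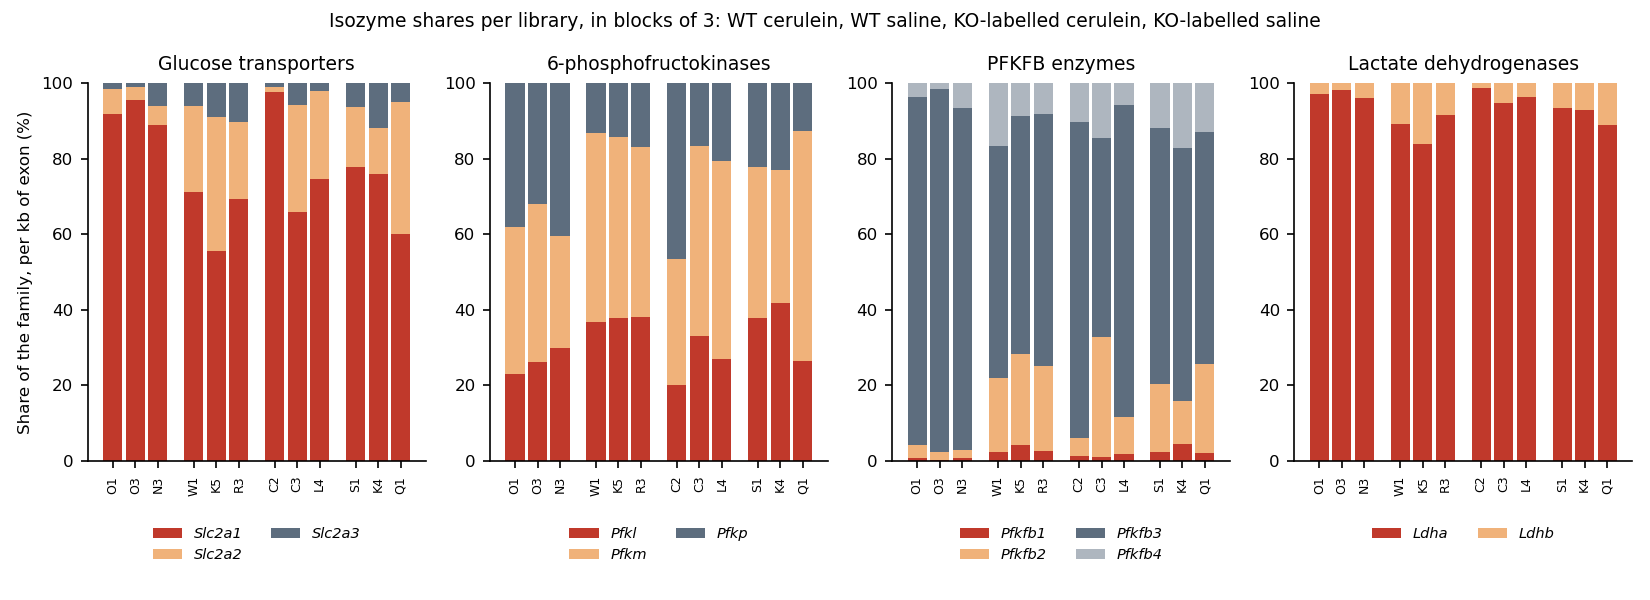
Share of each isozyme in its family's summed level per kb of exon, in percent, for each of the 12 libraries in blocks of 3 (wild-type cerulein, wild-type saline, labelled-knockout cerulein, labelled-knockout saline). Pfkfb3 fills 90.6 to 96% of its family in wild-type cerulein libraries and 61.4 to 66.6% in wild-type saline libraries, and C3 (52.6%) is below both ranges.

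Other genes of the pathway, 65 in 7 lists, were called about as often as all genes in wild type. Of 58 tested, 9 rose, 7 fell and 42 did not pass, so 27.6% were called, against 30.7% of all genes, and the median log2 fold change was -0.07. Without C3, 11 of 59 rose and 11 fell, or 37.3% against 37.9% of all genes. Among 13 shared glycolytic enzymes 3 rose and none fell: Pgk1, which makes the pathway's first ATP, by a log2 fold change of 1.61 ± 0.31, Tpi1 by 0.74 ± 0.21 and Aldoa by 0.56 ± 0.19 (SE; adjusted p = 0.00918, 0.0255 and 0.0494). Among 8 hexokinase and phosphofructokinase relatives, Hkdc1 rose (0.94 ± 0.32, SE; adjusted p = 0.0429) and Pfkfb2, the heart-type PFKFB enzyme, fell (-1.30 ± 0.33, SE; adjusted p = 0.0164). Of 7 other transporters Slc2a10 rose (1.38 ± 0.35, SE; adjusted p = 0.0155) and Slc2a13, the proton myo-inositol transporter, fell (-1.13 ± 0.38, SE; adjusted p = 0.0464).

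The 15 genes of lactate and pyruvate handling held the largest change, with 2 higher and 4 lower. Pdp1, a phosphatase that switches the pyruvate dehydrogenase complex on, had 36.5, 43.1 and 22.4 CPM in wild-type cerulein libraries, against 2.00, 2.72 and 1.81 CPM in wild-type saline libraries. The groups were far apart (log2 fold change 3.96 ± 0.69, SE; adjusted p = 0.00918). Pdp2, the other such phosphatase, had 0.589, 0.629 and 1.20 CPM after cerulein, against 4.33, 6.27 and 5.55 CPM after saline, the opposite order (-2.72 ± 0.70, SE; adjusted p = 0.0168). Pdk1, a kinase that switches the complex off, had 7.22, 6.53 and 6.58 CPM after cerulein, against 26.7, 24.2 and 22.8 CPM after saline (-1.86 ± 0.45, SE; adjusted p = 0.0141). The lactate transporter Slc16a1 also rose (1.47 ± 0.42, SE; adjusted p = 0.0241), and Mpc1, a subunit of the mitochondrial pyruvate carrier, and Pdhb, a subunit of pyruvate dehydrogenase, fell (-0.82 ± 0.29 and -0.41 ± 0.14, SE; adjusted p = 0.0483 and 0.0454).

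None of 5 gluconeogenic enzymes was called, among them the abundant Pck2, Pcx and G6pc3, with log2 fold changes of 0.83, -0.49 and -0.40. Without C3 Pck2, the mitochondrial form of PEP carboxykinase, rose in wild type (0.83 ± 0.27, SE; adjusted p = 0.0318) and in the labelled knockout (1.03 ± 0.29, SE; adjusted p = 0.0241). Of 8 pentose phosphate genes Rpia rose (0.69 ± 0.24, SE; adjusted p = 0.0497) and Pgls fell (-0.64 ± 0.22, SE; adjusted p = 0.0443). Arrdc4, an arrestin-type protein that lowers glucose uptake, had 94.4, 76.5 and 54.3 CPM in wild-type cerulein libraries, against 11.7, 8.37 and 7.88 CPM in wild-type saline libraries. It rose beside Slc2a1 (3.01 ± 0.61, SE; adjusted p = 0.00926), while its relative Txnip had a log2 fold change of -0.70 ± 0.35 (SE; adjusted p = 0.152). Pgk1, Pdp1 and Arrdc4 passed whichever library was left out, and each of the other 13 called genes missed the threshold without at least 1 library, Pdk1 only without O3 and Pdp2 without K5, O1 or O3.

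In the labelled knockout none of the 58 passed with C3, and without it 8 of 59 rose and 8 fell, or 27.1% against 29.2% of all genes. Without C3 the log2 fold changes were 3.11 ± 0.33 for Pdp1, -2.33 ± 0.41 for Pdp2, -1.96 ± 0.18 for Pdk1, 1.45 ± 0.16 for Pgk1 and 3.04 ± 0.28 for Arrdc4 (SE; adjusted p = 9e-05, 0.00177, 4.48e-05, 9.56e-05 and 3.94e-05). Pdp1 had 13.7 and 25.6 CPM in C2 and L4 and 2.11 CPM in C3, against 2.47, 2.14 and 2.20 CPM in labelled-knockout saline libraries.

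**Figure D5:**
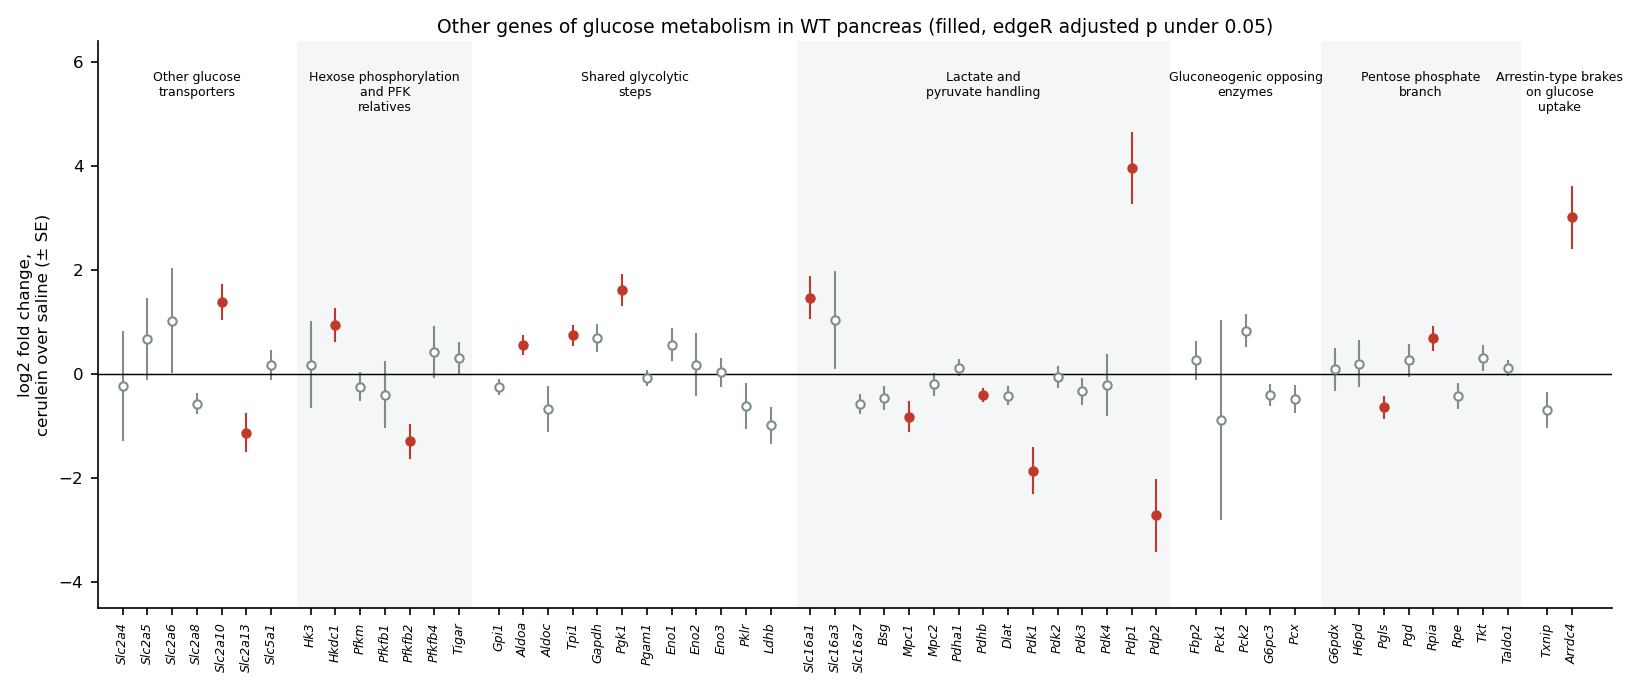
Log2 fold change of cerulein over saline with its SE in wild type for the tested pathway genes outside the 10 that are reported here, grouped by list along the x axis; filled symbols passed the test. Pdp1 (3.96) and Arrdc4 (3.01) lie highest, and Pdp2 (-2.72) is the lowest of the filled symbols.

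The genes whose log2 CPM ran most like those of the 3 genes with the largest wild-type changes were sought among 11361 genes over the 12 libraries, which share the split between cerulein and saline and the odd position of C3. Closest to Slc2a1 were Cfap43, Atp1b3 and Prkag2, with Pearson correlations of 0.991, 0.987 and 0.986. Closest to Pfkfb3 were Ubash3b (0.976), Grb2 (0.963) and Tiparp (0.962), and closest to Pfkp were Rbm3 (0.952), Irak2 (0.950) and Actr3 (0.949). Among the 10 genes themselves, Slc2a1 ran most like Hk1 (0.918) and Pfkp (0.871), and Pfkfb3 most like Slc2a1 (0.857) and Pfkp (0.832).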

How the data were processed

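Read counts per gene, whole numbers with no normalization, were deposited for 12 libraries. Per the labels' protocols the libraries came from total RNA and a stranded kit, and mm10, HTSeq and DESeq2 are listed in the submitters' processing notes. Neither these nor the headers state an aligner, an annotation or a strand setting. Symbols, positions and exon lengths came from GENCODE M21 on GRCm38, matched by identifier for 49326 of 49585 genes.

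With R 4.3.3, edgeR 4.0.16 (filterByExpr, TMM, robust quasi-likelihood F test, two-sided) was fitted on all 12 libraries with a mean for each of 4 groups, at an adjusted p threshold of 0.05 (Benjamini-Hochberg) over 14329 genes, or 14733 without C3. The biological coefficient of variation was 0.357, and 0.304 without C3. A standard error is the size of the log2 fold change over the square root of F. CPM are on TMM-scaled library sizes. The fit was also run on simulated counts for the wild-type comparison alone. They held no odd library such as C3, so that run does not bear on how C3 affects the calls. Alternatives used limma 3.58.1 and DESeq2 1.42.0, other scalings and filters, and left-out libraries. Other steps ran in Python 3.11.15 (matplotlib 3.10.9, NumPy 2.4.6, pandas 2.3.3).

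The 10 genes, the 7 pathway lists and the 11 marker lists were chosen with earlier results of these data known. Counts over a list also take in genes that the text does not name, some of them not reported here. From each list up to 3 called genes with the largest change and a mean of at least 1 CPM were named, or the most abundant where none was called, and Slc16a1, Mpc1, Pdhb and Txnip were added after their values were seen. Groups of 3 limit the precision. Pitrm1 shares exon sequence with Pfkp and Gm49759 with Pkm, and Ldha has 2 pseudogenes in the annotation, with 130 counts in all libraries against 24215 for Ldha.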

Additional observations from a re-analysis of the deposited data

How the results depend on the processing

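No paired analysis was possible because the 4 groups have no library code in common. In wild type, 4 of the 10 genes were called. The count was 5 with the wild-type libraries alone, by DESeq2 without C3, and without N3, K4 and C3. The last of these fits took in Hk2 and Pfkl, called lower, and not Ldha. It was 2 by edgeR with no filter on low counts and 2 by limma-voom, and in both Slc2a1 and Pfkp lost their call. Their adjusted p was 0.0765 and 0.0759 with no filter, and 0.0712 and 0.0543 by limma-voom. With 1 library left out, 1 to 4 of the 10 were called, and the count of all genes was 1841 to 5583 against 4399. In the labelled knockout none of the 10 was called, against 2 by DESeq2, 5 by DESeq2 without C3, 3 by limma-voom without C3, 5 without N3, K4 and C3, and 0 to 3 with 1 library left out. All genes called there were 0, against 1359, 4581, 4286 and 4319 in these same fits and 0 to 4306 with 1 library left out. Between the labels after cerulein DESeq2 without C3 called 1 of the 10, and of all genes DESeq2 called 11 with C3 and 14 without it. In the interaction DESeq2 called 1 gene. Isozyme shares not taken per length kept their order between the wild-type groups for the 5 shares given, with Pfkp at 62.2% against 32.7% (cerulein against saline).

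Over the 5 comparisons 76 of 1140 log2 fold changes of the 10 genes under these alternatives changed sign, none of them called. For Slc2a3 in wild type they were -0.38 without N3 and K4 and -0.39 also without C3. For Slc2a3 in the labelled knockout they were 0.04 by limma-voom, 0.26 by DESeq2 and 0.49 by limma-voom without C3, 0.67 without N3 and K4, and 1.01 also without C3. Between the labels after cerulein, Slc2a1 was at -0.82 by limma-voom and -0.17 without N3 and K4, and without N3, K4 and C3 Pfkp was at 0.09 and Ldha at 0.05. In the interaction, Slc2a1 was at 0.38 by DESeq2 and 0.40 by limma-voom without C3, and without N3, K4 and C3 it was at 0.48 and Ldha at 0.09. With 1 library left out, wild-type values ran from -0.59 to 0.26 for Slc2a2 and -0.34 to 0.75 for Slc2a3. Labelled-knockout values ran from -0.38 to 2.04 for Slc2a2, -0.45 to 0.67 for Slc2a3, -0.36 to 0.88 for Pfkp, -0.01 to 0.32 for Pkm and -0.57 to 0.04 for Pfkfb2. Between the labels after cerulein they ran from -0.93 to 0.58 for Slc2a1, -0.25 to 1.30 for Hk1 and -0.55 to 0.00 for Ldha, and in the interaction from -1.12 to 0.39 for Slc2a1 and -0.18 to 1.37 for Hk1. The cause was not tested, and where samples are left out the fits also hold fewer of them. The alternatives without N3 and K4, and those pairing another tool with C3 left out, were chosen after seeing the data. Of the pathway genes named, none called in wild type changed sign there under any alternative run.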

Other observations

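Slc2a5, the fructose transporter, rose in the labelled knockout when C3 was left out (log2 fold change 2.36 ± 0.66, SE; adjusted p = 0.0241), against 1.86 ± 0.81 with C3 (adjusted p = 0.206). It was named after its value was seen.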
